A study of Parasteatoda tepidariorum with 20 samples.

Results

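Stage 6 of embryogenesis in the common house spider *Parasteatoda tepidariorum* was examined against the stages on either side of it, late stage 5 and stage 7. Its members are the 2 stage 6 libraries (st6, 42 to 43 h after egg laying) of 20 libraries in all, and they were set against 4 libraries, 2 of late stage 5 (st5l, 36 to 37 h) and 2 of stage 7 (st7, 50 h). Each library was poly(A) mRNA from a pool of whole, untreated embryos of the Osaka isolate, and each stage was sampled in 2 developmental series, which came from 2 different pairs of parents. Series 1 and series 2 are replicates 1 and 2 of every stage. The pairs of parents were the only replication, so the spread between replicates is the difference between series 1 and series 2.

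In spider embryos a radially symmetric germ disc is turned into a germ band with a head end, a tail end and segments. Stage 6 falls in this change: the disc opens, cells rearrange along the new axis, and the caudal part that will add segments takes shape. Hedgehog signalling patterns the axis from the rim of the disc, Delta and Notch signalling act in the caudal part, and homeobox transcription factors, among them orthodenticle in the head and the Hox genes along the trunk, mark positions. In whole embryos, fewer cells of a type and less RNA per cell cannot be told apart.

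Abundance is given below as scaled RPKM, the read number of a gene model relative to its exon length and to the library's reads, divided by 1 factor per library (its median ratio to all the libraries). Differences are on the scale of log2(scaled RPKM + 1), which understates the change of gene models near 0. A gene model was called when limma's test, adjusted by Benjamini-Hochberg over the 13375 gene models tested, gave an adjusted p under 0.05. Gene models carry the names of the draft annotation (g12643 and so on), and positions are on the scaffolds of the assembly Ptep_1.0.

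The 2 stage 6 libraries did not resemble each other as the libraries of other stages did. Recovered read totals were 14647502 in series 2 and 16536827 in series 1, within the range of 9160802 to 17019009 over all 20 libraries. The share of reads on gene models was 92.82% in series 2 and 84.57% in series 1, against 77.47% to 88.54% in the other libraries, and the scaling factors were 0.678 in series 2 and 1.05 in series 1. The 10 most abundant gene models took 10.2% of the reads on gene models in series 2 and 6.12% in series 1. The SD over gene models of the series difference (series 2 minus series 1) was 0.87 at st6, against 0.45 at st5l and 0.42 at st7, and 2891 gene models differed by at least 1 on the log2 scale at st6, against 486 at st5l and 404 at st7. Among the stages other than st6 the largest values were 0.667 and 1458, both at st2. What sets st6 of series 2 apart was not tested. Levels of gene models below are given for each series, and total counts of calls against the neighbours also without that library. Counts of calls within gene lists are given only with it, so their dependence on it is not shown.

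The distance of stage 6 from its neighbours was large in series 2 and small in series 1. Over the 13375 gene models, the difference between st6 and the midpoint of st5l and st7 of the same series had an SD of 0.89 in series 2 and 0.26 in series 1. In series 2, 3093 gene models (23.1%) lay at least 1 from the midpoint, and in series 1 there were 84 (0.628%). The correlation of the 2 sets of differences across gene models was 0.227, as a description, since gene models are not independent replicates.

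After scaling, gene models outside both neighbours in both series were about as frequent above as below, a balance that turned with the scaling. In both series, 1634 gene models (12.2%) were above st5l and st7, and 1562 (11.7%) were below both, against 1208 above and 1641 below with RPKM as deposited. Another 966 (7.22%) were above both neighbours in series 1 and below both in series 2, and 1014 (7.58%) were the reverse. Taken at a distance of at least 0.5 from the nearer neighbour, 53 were above and 36 below. In single series, 3180 gene models were above both neighbours in series 1 and 5440 in series 2, and 3060 and 4905 were below both. How many would share a side if the series were unrelated was not tested. At st6, 3196 gene models lay on the same side in both series and 1980 on opposite sides, a ratio of 1.61. The same ratio was 1.26 at st7, 1.96 at st5e (early stage 5), 2.31 at st8 and 2.99 at st5l, and ranged up to 10.07 at st4, with st6 itself being a neighbour of st5l and st7.

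**Figure D1:**
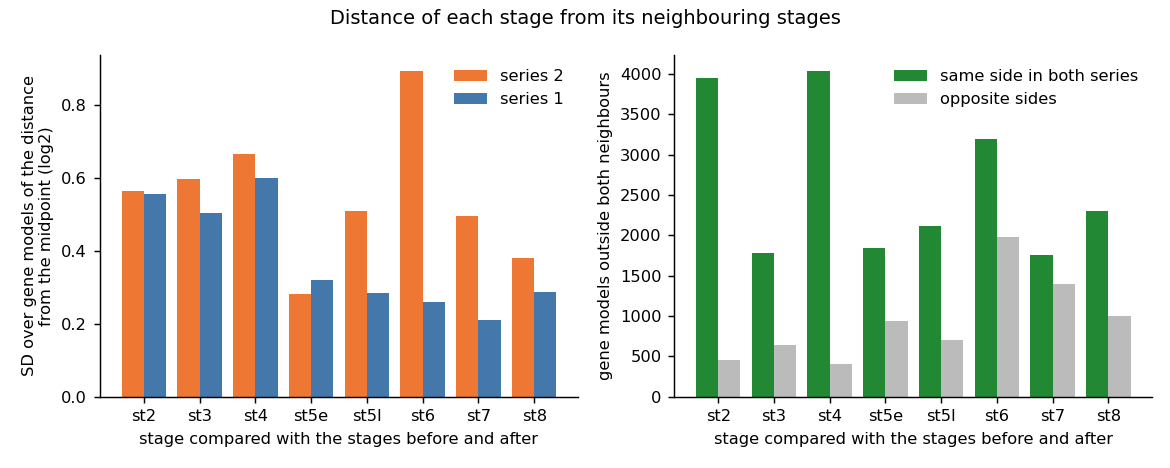
Left, the SD over 13375 gene models of each stage's distance from the midpoint of the stages before and after it (log2), for series 2 and series 1. Right, the number of gene models outside both neighbouring stages on the same side in both series or on opposite sides. At st6 the SD was 0.893 in series 2 and 0.259 in series 1, and st5l and st7 have st6 as a neighbour.

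Against the midpoint of its neighbours, stage 6 had 15 gene models called higher and 3 called lower, 18 in all and 0.135% of those tested, and 2386 had an unadjusted p under 0.05. Of the 18, 13 were above both neighbours in both series and 2 were below both, while 3 lay outside both neighbours in 1 series only. Tested against each neighbour on its own, 2 gene models were called above both and 1 below both. A gene model low at st5l and at its st7 level by st6 is also above the midpoint, so a call higher need not be a peak. Of 96 homeobox genes outside the Hox group, 6 were called higher, against 0.112% of all gene models, and 1 lower, against 0.0224%. Among the 6, 3 are gene models described as Pax-6, which may be parts of the same gene. XHOX-3-like, also described as a homeobox protein and called higher, was not counted in this list. Of 24 forkhead, T-box and GATA factors 1 was called higher, and of 31 heat shock proteins and chaperonins 3 were, with 0 lower in both lists. Without st6 of series 2 the test called 6, of which 5 were among the 18 (caudal, XHOX-3-like, FD5-like, ZBTB24 and the Pax-6 gene model g22155). Under a fit of only the 6 samples of st5l, st6 and st7 limma called 0, with 821 at an unadjusted p under 0.05. With array weights, which were lowest for the st6 libraries (0.288), limma called 2 of the 18. Over 15 alternatives, caudal and XHOX-3-like were each called in 14, the Pax-6 gene model g22155 in 13 and FD5-like in 11, while OTX2 was called in 4 and big brother in 5.

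The caudal gene (g12643, described as CDX-1-like, LOC107437910, scaffold 1522, 47421 to 84374, minus strand) encodes a homeobox factor of the posterior end. It had 46.3 and 19.6 scaled RPKM at st6 in series 1 and series 2, against 0.052 and 0.114 at st5l and 18.1 and 26.9 at st7. Both st6 values were far above st5l, where 2 and 3 reads were recovered, but in series 2 st6 was below st7. The difference from the midpoint was 2.64 ± 0.27 (SE; adjusted p 0.00073 by limma), and 3.24 (adjusted p 6.7e-05) without st6 of series 2. From st1 to st5l, caudal never exceeded 0.751 scaled RPKM.

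XHOX-3-like (g17585, LOC107443967, scaffold 2587, 24766 to 40760, plus strand) is named after a frog homeobox gene of the even-skipped family. Its description names it a homeobox protein, but it was not counted in any of the gene lists. Its scaled RPKM was 24.5 and 35.9 at st6, against 0 and 0 at st5l and 21.0 and 29.0 at st7. No read was recovered at st5l in either series, and st6 was the highest of the 3 stages in both. The difference from the midpoint was 2.60 ± 0.23 (SE; adjusted p 0.00043 by limma), and 2.33 (adjusted p 0.012) without st6 of series 2. An earlier, lower peak stood at st2, with 9.24 and 13.7 scaled RPKM.

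FD5-like (g4586, LOC107452205, scaffold 574, 327339 to 403334, minus strand) belongs to the forkhead transcription factors. It had 13.1 and 9.68 scaled RPKM at st6, against 0.384 and 0.16 at st5l and 3.03 and 4.52 at st7. Stage 6 was its highest stage of all 10 in both series. The difference from the midpoint was 2.33 ± 0.28 (SE; adjusted p 0.0026 by limma), and 2.53 (adjusted p 0.034) without st6 of series 2. Its call was lost with a pseudocount of 0.1 (adjusted p 0.25), array weights (0.38), voom weights (0.059) and the fit of 6 samples (0.37).

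Gene models described as Pax-6, a paired-box and homeobox factor known for its role in eye and head development, were called higher 3 times. The one on scaffold 7531 (g22155) had 10.7 and 10.2 scaled RPKM at st6, against 0.121 and 0 at st5l and 6.88 and 5.23 at st7. On scaffold 3259, g19451 had 5.77 and 10.7 scaled RPKM at st6, against 0 and 0 at st5l and 4.91 and 5.69 at st7. On scaffold 1357, g11688 had 3.44 and 3.61 scaled RPKM at st6, against 0.0794 and 0.116 at st5l and 2.08 and 1.04 at st7. In all 3, both st6 libraries were above all 4 neighbour libraries, and the differences from the midpoint were 2.07 ± 0.21, 1.83 ± 0.23 and 1.45 ± 0.18 (SE; adjusted p 0.00073, 0.0028 and 0.0026 by limma). Whether these gene models are separate genes or parts of the same gene was not determined on this draft assembly. Without st6 of series 2 the differences were 2.10 for g22155, 1.43 for g19451 and 1.42 for g11688 (adjusted p 0.019, 0.069 and 0.066).

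A Pax-6-like gene model that was not called, g19881, behaved otherwise in the 2 libraries. It had 2.06 scaled RPKM at st6 of series 2 and 19.2 at st6 of series 1, against 0.298 to 0.326 at st5l and 15.2 to 19.4 at st7. The st6 library of series 1 was near its st7 level, and that of series 2 was nearer to st5l.

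Homeobox genes of head families were also among the calls. EMX2-like (g2297), of the empty spiracles family, had 5.22 and 12 scaled RPKM at st6, against 0.917 and 0.251 at st5l and 2.96 and 3.39 at st7. OTX2 (g25936), a relative of orthodenticle, had 2.86 and 3.15 at st6, against 0.795 and 0.414 at st5l and 1.09 and 1.17 at st7. In both, the st6 libraries were above all 4 neighbour libraries, with differences from the midpoint of 1.82 ± 0.25 and 1.12 ± 0.19 (SE; adjusted p 0.0056 and 0.038 by limma). Without st6 of series 2 the differences were 1.29 for EMX2-like and 1.07 for OTX2 (adjusted p 0.071 and 0.47). Orthopedia-like (g16467), another homeobox factor, had the same form with 4.14 and 4.72 scaled RPKM at st6, against 0.55 and 0.803 at st5l and 0.812 and 0.86 at st7, and its adjusted p was 0.09.

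Heat shock proteins of 70 kDa, chaperones that help other proteins to fold, gave 3 of the calls. The Ab-like gene model (g5255, scaffold 632) had 100.1 and 218 scaled RPKM at st6, against 13.3 and 10.2 at st5l and 57.3 and 78.6 at st7. The B2 gene model g11686 had 16.0 and 38.2 at st6, against 2.25 and 1.45 at st5l and 8.74 and 8.97 at st7. The B2-like gene model g8699 had 5.36 and 8.95 at st6, against 0.375 and 0.0995 at st5l and 4.56 and 4.80 at st7. All 3 were higher at st6 than in all 4 neighbour libraries, by 2.35 ± 0.30, 2.29 ± 0.34 and 1.59 ± 0.23 from the midpoint (SE; adjusted p 0.0029, 0.01 and 0.01 by limma). Without st6 of series 2 they were 1.79, 1.69 and 1.27 (adjusted p 0.069, 0.3 and 0.3). The B2 gene model was higher still in the earliest embryos, at 47.8 and 56.9 scaled RPKM at st1.

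The other calls were of mixed kinds. Big brother (g1672), a partner of Runt-domain factors in flies, had 38.4 and 43.0 scaled RPKM at st6, against 1.51 and 1.17 at st5l and 30.3 and 40 at st7. ZBTB24 (g17796), a zinc finger protein, had 11.5 and 6.44 at st6, against 0.862 and 0.175 at st5l and 6.13 and 7.07 at st7, so that in series 2 st6 was below st7. The uncharacterized g25794 had 4.52 and 7.62 at st6, against 0.988 and 1.07 at st5l and 0.27 and 0.24 at st7. The undescribed g23251 had 3.77 and 11.9 at st6, against 0 and 0.73 at st5l and 0 and 0.469 at st7. These last gene models were called above each neighbour on its own.

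Of the 3 gene models called lower, the LIM homeobox gene Lhx5-like (g10485) was low at both earlier stages. It had 0.389 and 0.227 scaled RPKM at st6, against 0.0575 and 0.294 at st5l and 7.19 and 7.57 at st7, so its call reflects a level near st5l and not a dip. The undescribed g9282 had 0.485 and 0 at st6, against 4.73 and 7.80 at st5l and 6.46 and 7.31 at st7. It was below all 4 neighbour libraries and was called below each neighbour on its own. The undescribed g21760 had 0.507 and 0 at st6, against 1.75 and 1.38 at st5l and 4.67 and 2.4 at st7.

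**Figure D2:**
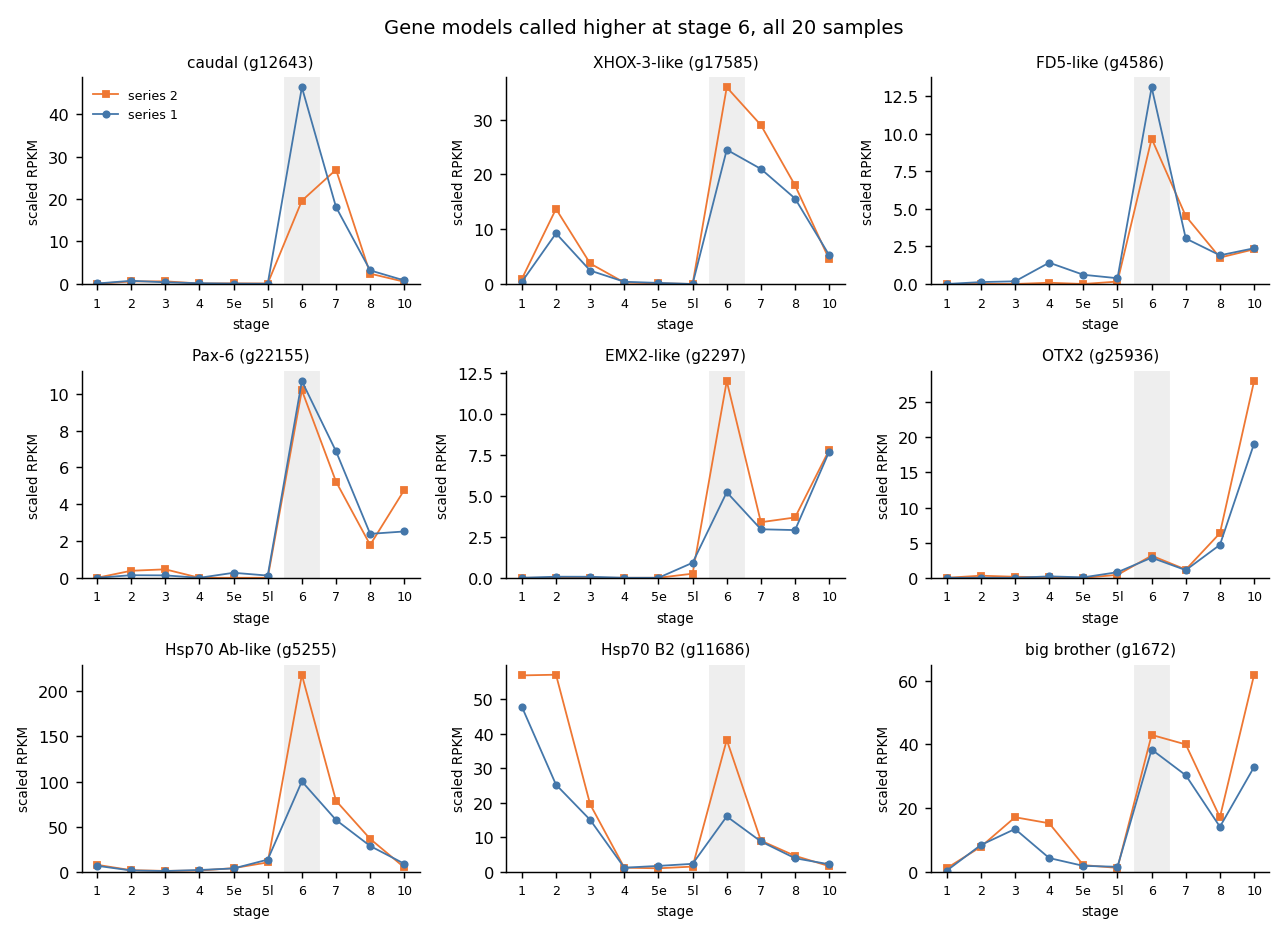
Scaled RPKM (vertical axis, from 0) of 9 of the gene models called higher at stage 6, over the 10 stages, with 1 line for each series and stage 6 shaded. Caudal was at 46.3 and 19.6 at st6 and at most 0.114 at st5l; OTX2 was higher at st10 than at st6 in both series, and big brother in series 2 only.

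Without the series as a block, no gene model with a description was called lower and lay below both neighbours in both series. Those next named are therefore a description. They are taken from an order by the smaller of the 2 within-series differences, and not all gene models in that order are printed. C15orf40 homolog (g19752) had 14.6 and 4.11 scaled RPKM at st6, against 40.9 and 37.1 at st5l and 38.9 and 34.8 at st7, with an adjusted p of 0.057, or 0.023 with the series as a block, where it was called lower. Snail homolog Sna (g417), a zinc finger factor of mesoderm and cell movement in flies, had 3.94 and 0.733 at st6, against 8.87 and 12.3 at st5l and 5.61 and 7.71 at st7. Its adjusted p was 0.16 by limma. Without st6 of series 2 the differences from the midpoint were -1.32 for C15orf40 homolog and -0.91 for Snail. Without st6 of series 1 they were larger, at -2.93 and -2.43. In both gene models both st6 libraries were below those of their own series at st5l and st7.

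Against late stage 5 alone, 100 gene models were called higher at stage 6 and 34 lower, 134 in all, which were 0.748%, 0.254% and 1.0% of those tested. Without st6 of series 2 the numbers were 86 and 25, and 67 of the 134 were still called. With the series as a block they were 177 and 75. Homeobox genes outside the Hox group had 12 of 96 called higher and 0 lower, and Hox genes had 4 of 21 called higher and 0 lower. The Hox gene Hox-A9b (g25355) had 13.8 and 7.51 scaled RPKM at st6, against 1.09 and 2.34 at st5l, and Hox-A5-like (g15606) had 16.0 and 13.7, against 3.93 and 3.42. Both st6 libraries were above both st5l libraries in each, with differences of 2.09 ± 0.27 and 1.76 ± 0.31 (SE; adjusted p 0.0012 and 0.014 by limma).

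Signalling and matrix genes were among the other calls against st5l. Wnt-11b-2 (g1356), a Wnt ligand, had 2.67 and 2.03 scaled RPKM at st6, against 0.053 and 0.155 at st5l (difference 1.60 ± 0.21 (SE), adjusted p 0.0014 by limma). Tollo (g6063), a Toll-like receptor, had 23.6 and 13.2 at st6, against 1.56 and 1.57 at st5l. Nidogen-2 (g7060), a basement membrane protein, had 16.5 and 13.6, against 2.91 and 1.04. In the opposite direction, a Delta-like gene model (g12734) had 3.20 and 9.59 at st6, against 18.1 and 23.8 at st5l, and HES-1-A (g17723), of the Hairy family that answers to Notch, had 6.35 and 8.23, against 20.3 and 26.3. Both were called lower, at adjusted p 0.048 and 0.032 by limma. Of 11 gene models in the Notch and Delta list, 1 was called lower and 0 higher against st5l, with a median difference of 0.39. Of 20 gene models in the list of basic helix-loop-helix factors, 2 were called lower and 0 higher, with a median of 0.05. By its search words this list also took in Snail, a zinc finger factor. Over all gene models 0.254% were called lower and the median was 0.01.

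Against stage 7 alone, 11 gene models were called higher at stage 6 and 33 lower, 44 in all, which were 0.0822%, 0.247% and 0.329% of those tested. Without st6 of series 2 the test called 0 higher and 5 lower, and all 5 were among the 44. With the series as a block there were 19 and 48. Orthodenticle (g9172) had 65.4 and 101.4 scaled RPKM at st6, against 16.1 and 25.1 at st7, and 84.6 and 100.1 at st5l. It was higher than st7 by 1.96 ± 0.30 (SE; adjusted p 0.0092 by limma) and overlapped st5l. Antennapedia, a Hox gene, was split over 2 gene models that carry the same gene ID. Its g15600 had 4.65 and 2.00 at st6, against 0.303 and 0.775 at st5l and 19.6 and 16.3 at st7, and g15601 had 2.28 and 1.59, against 0.172 and 0.15 at st5l and 7.81 and 6.09 at st7. Both gene models were called above st5l and below st7, at adjusted p from 0.0023 to 0.019.

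Of the other genes that pattern the axis, none was called against the midpoint. Hedgehog (g4322), the ligand, had 25.0 and 82.3 scaled RPKM at st6, against 29.1 and 25.7 at st5l and 17.4 and 18.6 at st7, so that st6 of series 1 lay between its neighbours and that of series 2 far above. Its receptor patched (g14374) had 81.8 and 72.6 at st6, against 55.7 and 61.4 at st5l and 84.3 and 77.9 at st7. Cubitus interruptus (g13321), the transcription factor of the pathway, had 46.0 and 47.4 at st6, against 78.0 and 77.7 at st5l and 47.5 and 49.7 at st7, and was below both neighbours in both series without passing the test (adjusted p 0.27). The Hedgehog list had 7 gene models tested and 0 called in either direction against the midpoint. Over all gene models only 0.135% were called, so a count of 0 in a list of this size says little about it.

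The forkhead gene fkh (g6985) had 51.4 and 78.5 scaled RPKM at st6, against 49.6 and 44.7 at st5l and 30.3 and 34.8 at st7, above both neighbours in both series (adjusted p 0.24). Twist (g14287), a factor of mesoderm, had 33.4 and 11.5 at st6, against 7.99 and 4.20 at st5l and 28.8 and 30.0 at st7. Delta (g25248), the Notch ligand, had 14.2 and 31.4 at st6, against 50.0 and 55.6 at st5l and 13.3 and 14.8 at st7. For twist, st6 of series 1 was near st7 and that of series 2 nearer to st5l, and for Delta the st6 library of series 2 again lay between the stages. Engrailed (g7393), a segment gene, was at 0.0152 and 0 at st6, against 0.0403 and 0 at st5l and 6.01 and 1.06 at st7.

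**Figure D3:**
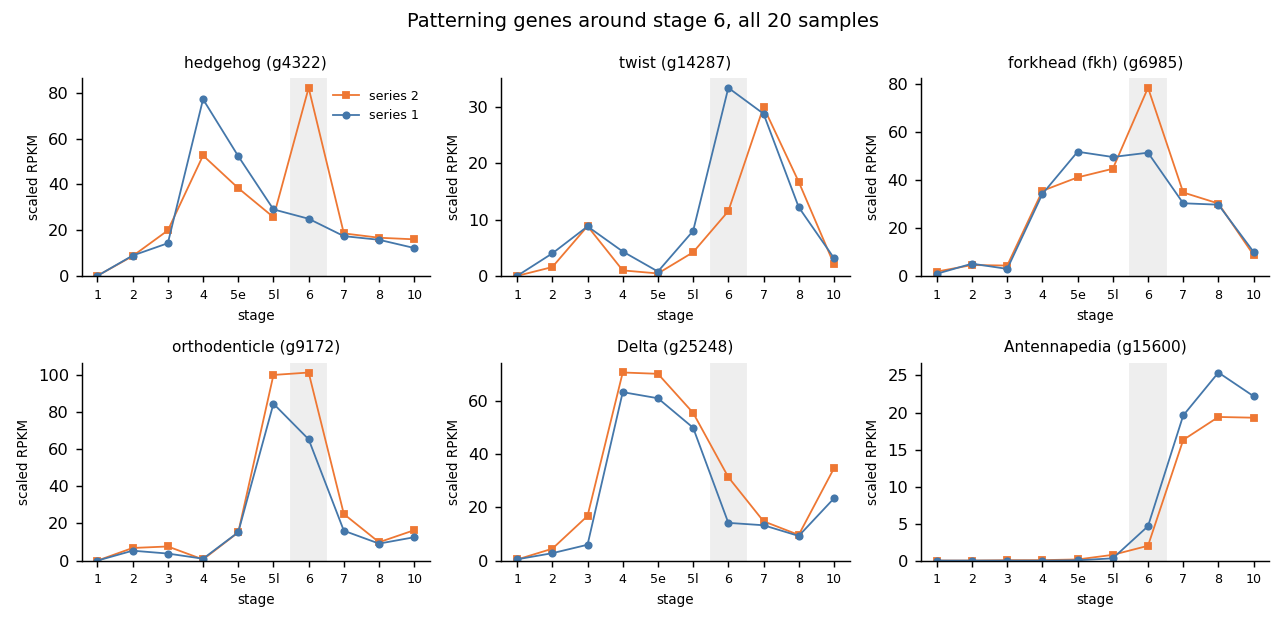
Scaled RPKM (vertical axis, from 0) of 6 patterning genes over the 10 stages, with 1 line for each series and stage 6 shaded. The series separate at st6 for hedgehog (82.3 in series 2 and 25.0 in series 1) and twist (11.5 and 33.4).

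The test of the series difference asked where st6 of series 2 departed from st6 of series 1 more than the mean of that difference over the other 9 stages. It tests a single library, with the spread taken from the other stages, and that this library stands apart was known from earlier results, so its calls describe where the library differs and are not independent evidence that it does. It called 1106 gene models higher in series 2 and 708 lower, 1814 in all and 13.6% of those tested. With RPKM as deposited, without scaling, the split was 413 higher and 1959 lower, with a median over all gene models of -0.33. Of the 18 gene models called against the midpoint, 2 were among the calls, EMX2-like (1.11, adjusted p 0.032) and caudal (-1.20, adjusted p 0.027). Hedgehog (1.70, adjusted p 0.0084) and both gene models of Wnt5, a Wnt ligand (2.56 for g1632 and 1.33 for g10820, adjusted p 0.0043 and 0.039), were called higher by limma, as was H15-1 (g11865), a T-box factor (1.11, adjusted p 0.027).

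Several lists of the basic cell machinery had more calls higher than lower. Calls higher were most frequent among the most abundant gene models, as given below, and the lists were not matched for abundance. Of 76 cytosolic ribosomal proteins, 32 were called higher and 1 lower, against 8.27% and 5.29% of all gene models. Their median distance from the midpoint of the neighbours was 1.20 in series 2 and 0.04 in series 1, against 0.00 in series 2 and -0.01 in series 1 over all gene models. Of 85 splicing proteins, 35 were called higher and 0 lower, with medians of 1.05 in series 2 and -0.02 in series 1. Of 41 proteasome proteins, 10 were called higher and 0 lower, with medians of 0.86 and -0.11, and of 31 heat shock proteins and chaperonins 8 were called higher and 0 lower, with medians of 1.23 and 0.17 in the same order. The shift was not particular to cell machinery. Of 40 basement membrane and integrin genes 8 were called higher and 0 lower, with medians of 0.77 in series 2 and 0.02 in series 1. Numbered zinc finger proteins went the other way, with 9 called higher and 20 lower of 207 and medians of -0.45 in series 2 and -0.01 in series 1.

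Most members of these lists lay above the midpoint in series 2, 65 of 76 cytosolic ribosomal proteins and 70 of 85 splicing proteins, but the size of the distance varied widely. Among cytosolic ribosomal proteins it ran from -3.15 to 3.17 in series 2, with an SD of 1.13 against 0.19 in series 1. 40S ribosomal protein S4 (g21157) had 176 scaled RPKM at st6 of series 2 and 1299.6 at st6 of series 1, against 1469 to 1641 in the 4 neighbour libraries. 40S ribosomal protein S6-like (g1869) had 13158 at st6 of series 2 and 1716 at st6 of series 1, against 1382 to 1921 in the neighbour libraries. The st6 library of series 2 was far below the neighbour libraries for S4 and far above them for S6, and that of series 1 was close to them for both.

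The undescribed g24499, chosen after its values were seen, had 1059 scaled RPKM at st6 of series 2 and 3.68 at st6 of series 1, against 0.722 to 10.0 in the neighbour libraries. Among described gene models, FUBI (g18689), a ubiquitin-like protein fused to a ribosomal protein, had 846 at st6 of series 2 and 27.7 at st6 of series 1, against 20.6 to 55.1 in the neighbour libraries. Protein phosphatase 5-like (g7057) had 25.6 at st6 of series 2 and 239 at st6 of series 1, against 215 to 557 in the neighbour libraries. In each, st6 of series 2 lay outside all 4 neighbour libraries.

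**Figure D4:**
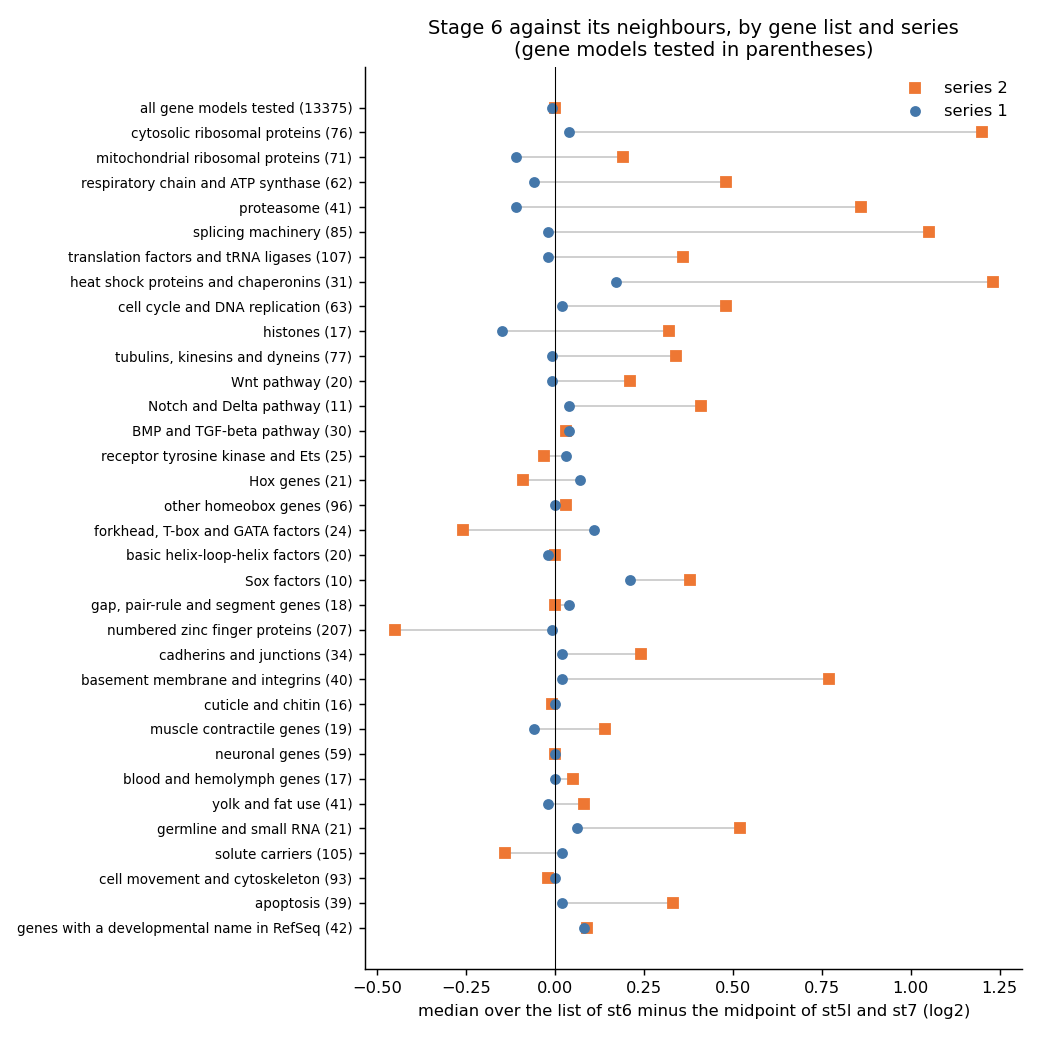
Median over each gene list of st6 minus the midpoint of st5l and st7 (log2, horizontal axis), for series 2 and series 1, with the number of gene models tested in parentheses. Lists of basic cell machinery lie to the right in series 2, up to 1.23 for heat shock proteins and chaperonins, and near 0 in series 1. Some other lists do too, such as basement membrane and integrins, at 0.77 in series 2 and 0.02 in series 1.

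The series difference also varied with abundance. Of 10 equal classes by level at st5l and st7, the most abundant had a median distance from the midpoint of 0.47 in series 2 and -0.07 in series 1, and the class with a median log2 level of 2.68 had -0.16 in series 2 and 0.04 in series 1. The series test called 321 of the 1338 gene models of the most abundant class higher and 67 lower. In the least abundant class it called 7 of 1338 higher and 0 lower. Over 10 classes by exon length the medians in series 2 stayed between -0.08 and 0.05, but the calls of the series test were 145 higher and 65 lower in the shortest class and 40 higher and 108 lower in the longest, and the SD of the distance in series 2 was 1.18 and 0.72 in the same classes. Summed levels of some lists of other tissues were also high in st6 of series 2. The summed scaled RPKM of 59 neuronal gene models was 654 and 1423 at st6, against 606.9 to 709.9 in the 4 neighbour libraries, that of 19 muscle gene models was 310.5 and 582, against 274 to 358, and that of 41 yolk and fat gene models was 2214 and 4638, against 1792 to 2361. The medians of these lists in series 2 were near that of all gene models, at 0.00, 0.14 and 0.08, so that the sums were carried by part of the members. Germline and small RNA genes (21 gene models) summed to 991 and 1747 at st6, against 800.2 to 1121, while cuticle and chitin genes (16) summed to 72.1 and 47.1, against 49.5 to 95.7, and blood and hemolymph genes (17) to 20.0 and 32.6, against 17.6 to 38.3. Of the neuronal, muscle and yolk lists, 23, 8 and 12 gene models were under 1 scaled RPKM in all 6 libraries. Their part in the differences was not tested.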

How the data were processed

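RNA-Seq of poly(A) mRNA from pooled whole embryos covered 10 stages in 2 series. The authors aligned the reads to Ptep_1.0 with BLAT, counted them against AUGUSTUS gene models, strand by strand, with htseq-count (HTSeq 0.6.1p1 in the submitters' processing notes) and deposited RPKM values. All 20 columns were matched to samples by stage and replicate number. The members and gene lists were chosen with earlier results of these data known.

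RPKM was divided by median-ratio factors over the 10686 gene models above 0 in all samples. Tests used log2(scaled RPKM + 1), only gene models that reached an RPKM of 1 in 2 or more samples, and limma 3.58.1 in R 4.3.3 (lmFit, eBayes with trend), in 1 fit of the 10 stage means of all 20 samples. The series test added a term for the series and 1 for st6 of series 2. Each library's read total and each exon length were recovered from the RPKM steps, which gave whole reads (within 0.002) for 99.87% of 21765 gene models with any reads. At the median exon length, 1 read was worth 0.034 to 0.063 RPKM. The fits were run on simulated counts, with the same dispersion in every library and shifts in chosen gene models only. No library-wide departure such as that of st6 of series 2 was simulated. Summaries used Python 3.11.15, numpy 2.4.6, pandas 2.3.3 and matplotlib 3.10.9.

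The replicate number names the pair of parents, which pairs the samples. The series differences correlated across gene models at 0.149 (st6 and st5l), 0.25 (st6 and st7) and 0.599 (st7 and st5l).

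Named for the midpoint were the 12 largest differences each way among called, described gene models outside both neighbours in both series, filled by the smaller within-series difference, and the 2 largest whatever the description. Named for the series test were described gene models from the 8 largest each way. Also named were list members among the 3 furthest from 0, and hedgehog, patched, caudal, twist, forkhead, engrailed, orthodenticle, Delta and the Hox genes. Not all of these are printed. Others were chosen after their values were seen: g24499, g25794 and ZBTB24. Lists came from words in the descriptions, and members matching only by an unrelated word were dropped. XHOX-3-like, described as a homeobox protein, was also left out of the lists. Developmental names came from RefSeq's CAS_Ptep_4.0. Alternatives were other scalings, pseudocounts, filters and weights, the replicate block, a fit of 6 samples, voom on recovered reads, and each library left out.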

Additional observations from a re-analysis of the deposited data

Results flagged for a closer look

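The difference between the 2 stage 6 libraries departed from that of the other stages, by limma's term for st6 of series 2, in 1814 gene models. That the series 2 library stands apart was known from earlier results of these data, so this count describes the library and is not independent evidence. Among the gene models named for other reasons, the departure (log2, series 2 minus series 1, less the mean of the other 9 stages) was 1.11 for EMX2-like (g2297), -1.20 for caudal (g12643), 1.70 for hedgehog (g4322), 1.33 and 2.56 for the Wnt5 gene models g10820 and g1632, and 1.11 for H15-1 (g11865). Each rests on 1 library, and what sets it apart was not tested.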

How the results depend on the processing

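With 2 libraries a stage, leaving out a stage 6 library leaves 1, which is assumed to vary like the other groups. Against the midpoint, 18 calls became 10 with a pseudocount of 0.1, 0 in the fit of 6 samples, 2 with array weights and 11 with voom weights. Leaving out each library in turn gave 6 (without st6 of series 2) to 3573 (without st6 of series 1), with 10 without st5l of series 2 and 9 without st7 of series 1. Against st5l, 134 became 81 as deposited, 74 with a pseudocount of 0.1, 0 in the fit of 6 samples, 18 with array weights and 70 with voom weights, and 34 (without st5l of series 2) to 3240 (without st6 of series 1) with a library left out, 81 without st5l of series 1. Against st7, 44 became 14 with a pseudocount of 0.1, 0 in the fit of 6 samples, 0 with array weights and 12 with voom weights, and 4 (without st7 of series 1) to 3189 (without st6 of series 1), with 5 without st6 and 17 without st7 of series 2. At the counts of 0, 821, 1365 and 790 gene models (fit of 6 samples, against the midpoint, st5l and st7) and 1024 (array weights, st7) had an unadjusted p under 0.05. The series test called 876 with quantile normalization and 0 in the fit of 6 samples (4731 at an unadjusted p under 0.05). The cause was not tested.

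With the replicate block the calls were 26 against the midpoint, 252 against st5l and 67 against st7, and they held all 18, 134 and 44 of those without it. At a distance of at least 0.5, 53 gene models lay above both neighbours in both series, 36 below and 22 on opposite sides. Among the 48 gene models checked against the midpoint, differences turned sign only in those not called there: patched (g14374) was -0.08 as deposited and -0.06 under quantile normalization, and Antennapedia was 0.14 (g15600) and 0.81 (g15601) with voom weights, g15601 also 0.00 under quantile normalization and 0.57 with a pseudocount of 0.1. With a library left out, Delta ran from -0.91 to 0.19, twist from -0.21 to 1.26, g15600 from -0.84 to 0.08 and g15601 from -0.23 to 0.11.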
